A study of Mus musculus with 6 samples.

Results

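Transient receptor potential (TRP) channels are cation channels through which sensory neurons of the dorsal root ganglion (DRG) respond to heat, cold and irritants. *Trpv1*, *Trpv2*, *Trpa1*, *Trpm8*, *Trpm2*, *Trpm3*, *Trpm4*, *Trpc1* and *Trpc6* were taken by gene symbol from a table of read counts, and all 9 were among its 48440 rows and among the 18593 genes tested. Compared with AAV5-Gfp DRGs, DRGs with AAV5-NIS V1 and V2 had fewer reads for the cold and menthol channel *Trpm8* and for *Trpc6*, and these 2 were the members that passed the test. *Trpm8* fell to 67.7% of its AAV5-Gfp level and *Trpc6* to 73.8%. The other 7 members did not pass. *Trpm2* was the single member with a higher mean in the AAV5-NIS V1 and V2 libraries. Summed genes of neurons in general were at 73.4% in the same libraries, and with libraries scaled on these genes neither fall was called. That scaling called only 0.0645% of all genes tested lower, so the lost calls are not particular to these 2 members.

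The 6 libraries were made from total RNA of DRGs of wild-type male mice. All mice had received a microinjection of an AAV5 vector into the L3 and L4 DRGs of 1 side, and the DRGs of that side were collected. One group received AAV5-Gfp, which carries green fluorescent protein (3 libraries, the Gfp libraries). The other received AAV5-NIS V1 and V2, a mixture of vectors for each variant of *NIS-lncRNA*, a long noncoding RNA that the study follows after nerve injury (3 libraries, the NIS libraries). The deposited design text gives collection of the DRGs at 5 weeks after injection and the expression profiles at 4 weeks. The ages of the mice are not given in the labels, and neither is whether the libraries of a group came from separate animals, so p-values measure the spread between these libraries alone. Each group had its own vector preparation, and the effects of the preparation and of the RNA it carries cannot be told apart. Total counts ran from 32618252 to 34764282 across Gfp libraries and from 32025612 to 34228594 across NIS libraries.

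The TRP channels named here form a single family of tetrameric pores. TRPV1 opens with capsaicin, acid and noxious heat, TRPA1 with mustard oil and other electrophiles, TRPM8 with cool temperatures and menthol, and TRPM3 with heat and the steroid pregnenolone sulfate. In nociceptors, these channels turn a stimulus into a depolarizing current, and inflammatory mediators sensitize some of them through kinases and phospholipase C. TRPM2 responds to oxidative stress and to ADP-ribose and is also expressed by macrophages and neutrophils. Since RNA came from the whole ganglion, fewer cells of a type and less RNA per cell cannot be told apart.

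Promoter sequences are shown for the members that fell, *Trpm8* and *Trpc6*, and for *Trpm2*, whose libraries lay in the opposite direction. They were read from a RefSeq promoter table (GRCm38.p6), in which 7 of the 9 members were matched and *Trpa1* and *Trpm4* were not. The windows are the 250 bases before the start that this table uses, written 5′ to 3′ on the strand of the gene. For *Trpm8* and *Trpm2* this start lies inside the longer GENCODE gene, so that other transcripts begin farther upstream. For *Trpm8*, which is on the plus strand, the print stops after 177 bases, where an annotated exon of another of its transcripts begins. Capitals mark matches to either of 2 short motifs on either strand, the TATA box TATAAA and the cAMP response core TGACG.
*Trpm8*, chr1:88306485-88306661, plus strand: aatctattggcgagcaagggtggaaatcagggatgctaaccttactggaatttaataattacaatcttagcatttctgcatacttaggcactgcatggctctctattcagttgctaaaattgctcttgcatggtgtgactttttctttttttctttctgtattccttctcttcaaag
*Trpc6*, chr9:8543892-8544141, plus strand: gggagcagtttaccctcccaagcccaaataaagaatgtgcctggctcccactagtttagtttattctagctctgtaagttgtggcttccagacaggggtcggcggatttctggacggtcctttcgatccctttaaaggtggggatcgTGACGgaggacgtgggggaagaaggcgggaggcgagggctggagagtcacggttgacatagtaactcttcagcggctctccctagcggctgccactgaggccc
*Trpm2*, chr10:77969873-77970122, minus strand: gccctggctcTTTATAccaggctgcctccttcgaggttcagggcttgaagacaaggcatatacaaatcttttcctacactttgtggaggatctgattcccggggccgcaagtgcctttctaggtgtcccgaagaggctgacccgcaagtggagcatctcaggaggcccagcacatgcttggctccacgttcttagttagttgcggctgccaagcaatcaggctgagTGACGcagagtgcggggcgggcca
The printed *Trpm8* stretch has no match, and the window has 1 TATAAA in the part not printed, 30 bases before the start. *Trpc6* has 1 TGACG, 103 bases before its start. *Trpm2* has TATAAA on the opposite strand 240 bases before its start and TGACG 24 bases before it. Of 32851 promoter windows of the same length, 12.4% hold TATAAA and 17.8% hold TGACG. The cores CCGGAA of ETS factors and TGTGGT of RUNX factors are held by 12% and 14% of windows. TGTGGT occurred in *Trpv1* and *Trpm3*, and CCGGAA in none of the 7 members. These matches are letters in a window, and binding was not measured.

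The levels of the 9 members differed widely. Per kilobase of merged exons, *Trpm3* was highest in Gfp libraries, at 23.6 CPM per kb, where CPM is the read count relative to library size after TMM scaling, followed by *Trpv1* at 19.7, *Trpm8* at 15.9, *Trpv2* at 11.96, *Trpa1* at 9.63, *Trpc1* at 4.31, *Trpc6* at 3.95, *Trpm4* at 2.19 and *Trpm2* at 1.90 CPM per kb. *Trpm3* (20.6 to 26.1 CPM per kb) and *Trpv1* (18.9 to 21.2) overlapped, and the other neighbours in this order did not. In NIS libraries, 4 of the 8 neighbouring pairs overlapped. *Trpm8* was above *Trpv2* in 3 of 3 Gfp libraries and in 1 of 3 NIS libraries, and *Trpm4* was above *Trpm2* in 3 of 3 Gfp and 0 of 3 NIS libraries. This order depends on the length used. *Trpm3* has 24 annotated transcripts over 24437 bases of merged exons, and per kilobase of its longest coding transcript its level was 108.5 CPM. On that scale *Trpv2* (18.4 CPM per kb) and *Trpm8* (18.2) had nearly the same level in Gfp libraries.

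**Figure D1:**
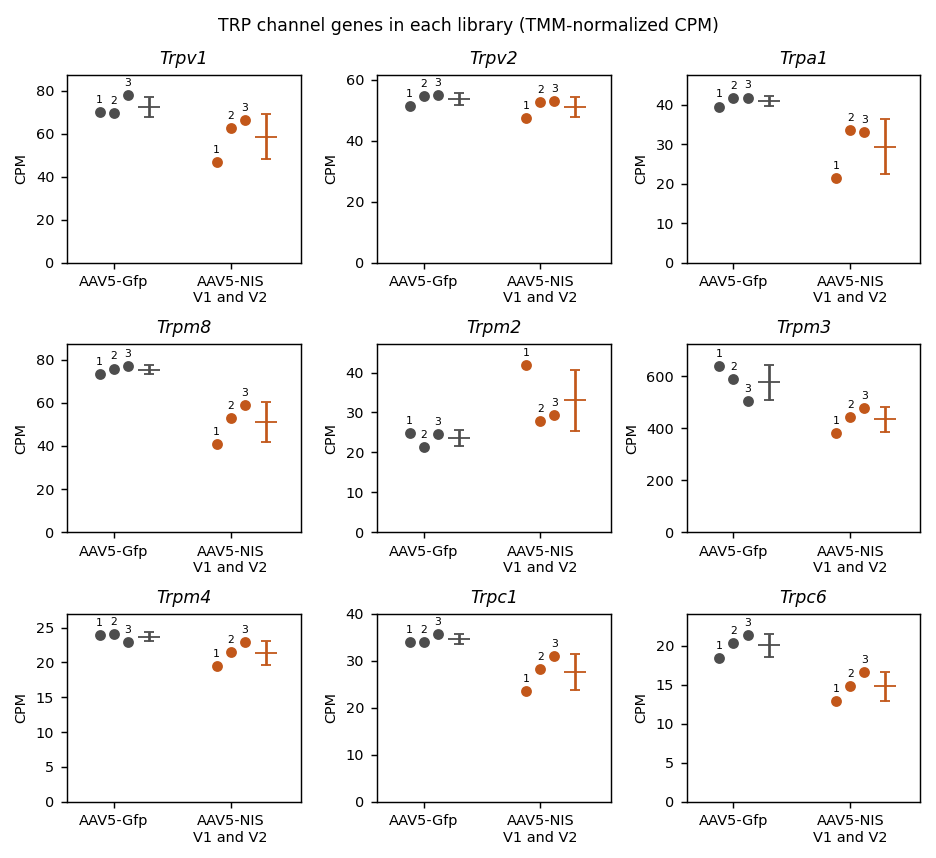
Level of each TRP member in each of the 6 libraries, in CPM after TMM scaling, with axes from 0, replicate numbers above the points, and mean ± SD (n = 3) as bars. *Trpm8* and *Trpc6* were lower in all NIS libraries, *Trpm2* was higher, and NIS replicate 1 was the most distant library in each of these panels.

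*Trpm8* (ENSMUSG00000036251.16, GRCm38 chromosome 1, 88277661 to 88389293, plus strand, 26 exons in its longest coding transcript) had 2362, 2631 and 2410 reads in Gfp replicates 1, 2 and 3. NIS replicates 1, 2 and 3 had 1351, 1764 and 2029. In CPM, this was 73.2, 75.9 and 77.2 against 41.1, 53.0 and 59.1. The Gfp libraries lay close together, and every NIS library was below all of them. The mean of 75.4 ± 2.06 CPM in Gfp libraries fell to 51.1 ± 9.20 CPM in NIS libraries (SD, n = 3 each), a log2 fold change of -0.56 (SE 0.13, 95% interval -0.86 to -0.27, adjusted p = 0.0301, by the quasi-likelihood test of edgeR with Benjamini-Hochberg correction over all genes tested). An antisense gene, 4930453O03Rik, shares 388 exon bases with *Trpm8*, and since the use of strand in the counting is not stated, its reads cannot be separated from those of *Trpm8*. The call was lost in 4 of 6 leave-one-out fits, with edgeR adjusted p-values of 0.0799, 0.104 and 0.117 without Gfp replicate 1, 2 or 3 and 0.0688 without NIS replicate 2. The log2 fold change was between -0.58 and -0.55 in these 4 fits, and in those without Gfp replicate 2 or 3 edgeR called 0 of all genes lower (2029 and 1815 at an unadjusted p under 0.05).

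*Trpc6* (chromosome 9, 8544142 to 8680741, plus strand), a diacylglycerol-gated channel that has been linked to mechanical sensitivity, was at 18.4, 20.3 and 21.3 CPM in Gfp replicates 1, 2 and 3 and at 12.9, 14.8 and 16.6 CPM in NIS replicates 1, 2 and 3. These groups did not overlap, with 595, 703 and 665 reads against 424, 492 and 570. It fell from 20.0 ± 1.46 to 14.8 ± 1.86 CPM (SD, n = 3 each), by 0.44 on the log2 scale (SE 0.11, 95% interval -0.70 to -0.17, edgeR adjusted p = 0.0428). The call was lost in the same 4 fits, with edgeR adjusted p-values of 0.0795, 0.131 and 0.148 without Gfp replicate 1, 2 or 3 and 0.103 without NIS replicate 2, and log2 fold changes there between -0.49 and -0.39. It was also lost when libraries were scaled by total counts alone (edgeR adjusted p = 0.0516).

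Of the 9 members, 2 were called lower, beside 5.27% of all genes tested, and 0 higher, beside 10.1%. At an unadjusted p under 0.05 in edgeR, 6 members were lower (15.5% of all genes tested) and 1 was higher (19.2%). DESeq2 called 5 members lower (8.64% of all genes) and 1 higher (12.9%). For 7 of the 9 members, 6 lower and 1 higher, the groups did not overlap, as for 45.4% of all genes tested. The median log2 fold change was -0.33 over the members and -0.0003 over all genes tested. NIS replicate 1 was the lowest of the 6 libraries for 8 members and the highest for the remaining one, *Trpm2*.

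Among the channels for heat and irritants, *Trpa1* (chromosome 1, 14872648 to 14918862) had the largest fold change. It was at 39.6, 41.7 and 41.9 CPM in Gfp replicates 1, 2 and 3 and at 21.5, 33.6 and 33.2 CPM in NIS replicates 1, 2 and 3. All NIS libraries were below all Gfp libraries, and NIS replicate 1 was well below the other two. The log2 fold change was -0.48 (SE 0.16, 95% interval -0.86 to -0.10, edgeR adjusted p = 0.0866). Without NIS replicate 1, the fold change was smaller (-0.29) and the spread narrower, and edgeR's adjusted p was 0.0160.

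*Trpv1* (chromosome 11, 73234292 to 73261242), the capsaicin receptor, was at 70.2, 69.5 and 78.0 CPM in Gfp replicates 1, 2 and 3 and at 46.7, 62.5 and 66.5 CPM in NIS replicates 1, 2 and 3. The groups did not overlap, but NIS replicate 3 was close to the lowest Gfp library. The log2 fold change was -0.31 (SE 0.13, edgeR adjusted p = 0.143), and it was -0.16 without NIS replicate 1. *Trpm3* (chromosome 19, 22139046 to 22995410), the channel with the most reads, was at 639, 589 and 504 CPM in Gfp replicates 1, 2 and 3 and at 381, 443 and 478 CPM in NIS replicates 1, 2 and 3. It varied more among Gfp libraries than the other members with no overlap did, and its log2 fold change was -0.41 (SE 0.13, edgeR adjusted p = 0.0645). The genes Gm27151 and C330002G04Rik on the opposite strand share 277 and 351 exon bases with *Trpm3*, so that its counts are uncertain in those stretches.

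*Trpv2* (chromosome 11, 62574486 to 62600515), which responds to very high temperatures in vitro and is found in medium and large neurons, was the member with the smallest difference. Its Gfp libraries were at 51.3, 54.7 and 54.9 CPM and its NIS libraries at 47.3, 52.7 and 52.9 CPM, in order of replicate. These ranges overlapped, and the 95% interval of the log2 fold change ran from -0.24 to 0.09 around -0.07. Without NIS replicate 1, the log2 fold change was -0.018.

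Of the remaining channels, *Trpc1* (chromosome 9, 95705082 to 95750375), a subunit of receptor-operated and store-operated channels, was at 34.1, 34.1 and 35.8 CPM in Gfp replicates 1, 2 and 3 and at 23.5, 28.2 and 31.1 CPM in NIS replicates 1, 2 and 3. No libraries overlapped, and the log2 fold change was -0.33 (SE 0.11, edgeR adjusted p = 0.0761). *Trpm4* (chromosome 7, 45302632 to 45333780), a calcium-activated channel for monovalent cations, was at 24.0, 24.1 and 22.9 CPM in Gfp libraries and 19.5, 21.5 and 22.9 CPM in NIS libraries. NIS replicate 3 reached Gfp replicate 3, and the log2 fold change was -0.15 (95% interval -0.34 to 0.04), and -0.087 without NIS replicate 1.

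*Trpm2* (chromosome 10, 77907722 to 77970563) was at 24.8, 21.4 and 24.7 CPM in Gfp replicates 1, 2 and 3 and at 41.8, 27.9 and 29.3 CPM in NIS replicates 1, 2 and 3. Every NIS library was above every Gfp library, but 1 library, NIS replicate 1, stood far above the rest. The log2 fold change was 0.48 (SE 0.16, 95% interval 0.11 to 0.86, edgeR adjusted p = 0.0805), and 0.28 without NIS replicate 1. Summed levels of macrophage markers were also higher in all NIS libraries and highest in NIS replicate 1. They were at 275, 272 and 199 CPM in Gfp replicates 1, 2 and 3 and 1509, 811 and 560 CPM in NIS replicates 1, 2 and 3. Within each group, replicates 2 and 3 were in the opposite order for *Trpm2*. Of the 12 macrophage markers, 10 rose (beside 10.1% of all genes tested) and none was at 0 in any library. Those with the smallest adjusted p were the complement genes *C1qa* (log2 fold change 1.93), *C1qb* (1.70) and *C1qc* (1.78), *Aif1* (1.66) and the lysozyme gene *Lyz2* (2.76). Their part in the level of *Trpm2* was not tested.

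**Figure D2:**
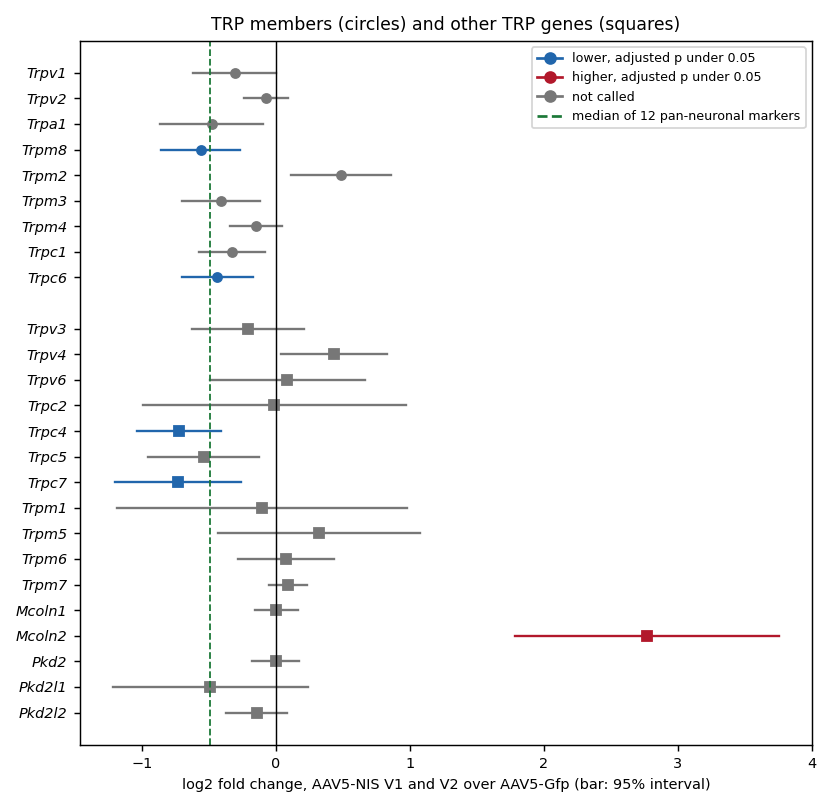
Log2 fold change of each TRP member (circles) and of 16 other TRP genes tested (squares), NIS over Gfp libraries, with 95% intervals. Blue and red mark genes lower or higher at an adjusted p under 0.05 in edgeR's test. The dashed line is at the median of 12 pan-neuronal markers (-0.49). Among the members, it runs through the intervals of *Trpv1*, *Trpa1*, *Trpm8*, *Trpm3*, *Trpc1* and *Trpc6*. It also crosses intervals of other TRP genes, such as *Trpc4* and *Trpc5*. *Trpm2* is the only member above 0, and 7 of the 16 other TRP genes are above 0, with *Mcoln2* the highest.

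Neuronal genes were examined beside the members. All 12 pan-neuronal markers and all 15 nociceptor markers had lower means in NIS libraries, and 4 and 2 of them fell (beside 5.27% of all genes tested). At an unadjusted p under 0.05 in edgeR, 10 and 10 of them were lower, beside 15.5% of all genes tested. The pan-neuronal genes that fell were *Rbfox3* (log2 fold change -0.93), *Syt1* (-0.73), *Map2* (-0.56) and *Pou4f1* (-0.43), and the nociceptor genes were *Prdm12* (-0.65), a regulator of nociceptor development, and *Gfra2* (-0.48), a neurturin receptor. Summed over each list, pan-neuronal markers were at 4644 to 5200 CPM in Gfp and 2763 to 4080 CPM in NIS libraries, which is 73.4% of the Gfp mean. Nociceptor markers were at 2598 to 2986 and 1651 to 2270 CPM (74.5%), and the 9 members at 861 to 974.5 and 634.7 to 790.2 CPM (78.2%). Each of these 3 sums separated the groups, with p = 0.1 in an exact two-sided permutation test, the smallest that 3 libraries against 3 allow. Most of the member sum came from 1 gene, *Trpm3*, with means of 577 CPM in Gfp and 434 CPM in NIS libraries (75.2%). NIS replicate 1 was lowest for 12 of 12 pan-neuronal and 15 of 15 nociceptor markers. No gene of these lists was at 0 in any library, and the markers of the labelled tissue were thus present throughout.

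**Figure D3:**
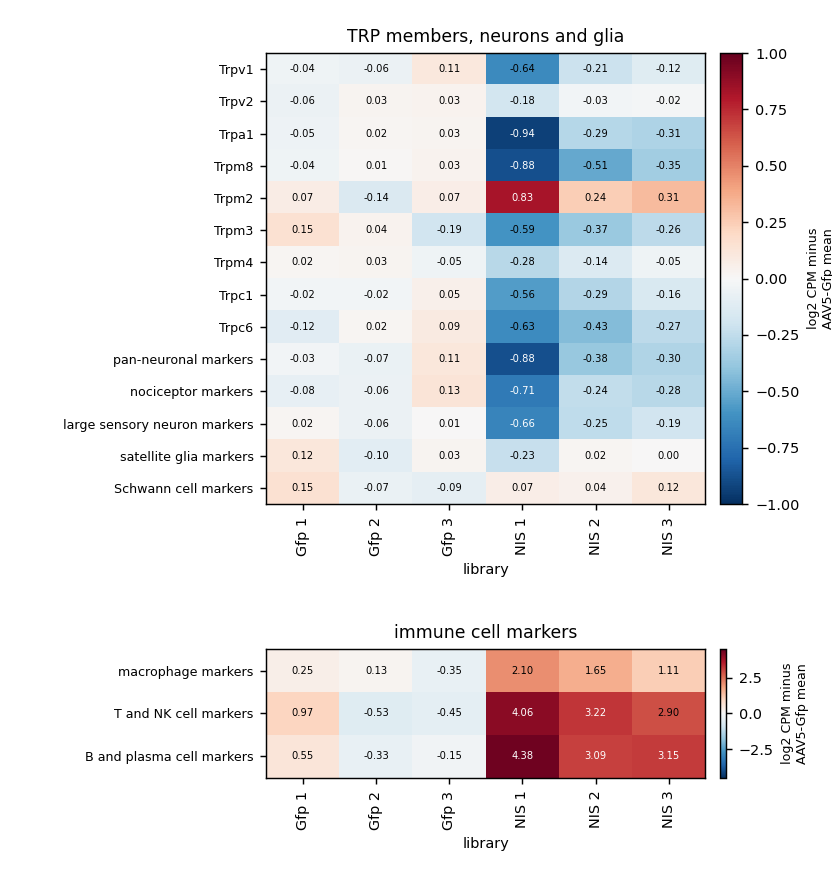
Log2 CPM of each library minus the mean of the Gfp libraries, for the 9 members (each gene) and for marker lists (median over the list), with separate color scales for the upper and lower panels. NIS replicate 1 has the lowest values of the upper panel for pan-neuronal markers (-0.88), *Trpa1* (-0.94) and *Trpm8* (-0.88) and the highest for *Trpm2* (0.83) and for the immune lists of the lower panel.

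Scaling the libraries on the summed pan-neuronal markers gives the members relative to neurons. On this scale 0 of 9 members were lower, beside 0.0645% of all genes tested, and 0 were higher, beside 14.5%. At an unadjusted p under 0.05 in that edgeR test, 0 members were lower, beside 121 of the 18593 genes tested. In the same test 2 members were higher, beside 9033 of these genes. The scaling moved the median log2 fold change of all genes to 0.48, and that of the members to 0.13. *Trpm8* was at -0.11 (SE 0.14, edgeR adjusted p = 0.497) and *Trpa1* at -0.04, whereas *Trpc6* (0.02), *Trpm3* (0.05), *Trpc1* (0.13), *Trpv1* (0.14), *Trpm4* (0.32) and *Trpv2* (0.40) changed sign. *Trpm2* was at 1.02 (SE 0.29), with an edgeR adjusted p of 0.0502. Scaled on nociceptor markers, a choice made after the data were seen, *Trpm8* was at -0.14 (SE 0.12) and *Trpm2* at 0.97 (SE 0.27, edgeR adjusted p = 0.0434). Since this scaling moves all genes by about the same amount, the changes of sign follow from the size of that shift and from the values under TMM.

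**Figure D4:**
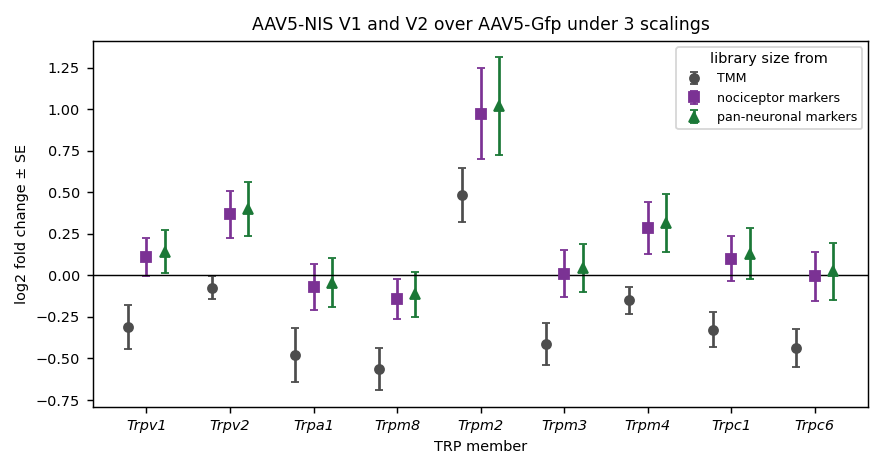
Log2 fold change ± SE of each member, NIS over Gfp libraries, with library size taken from TMM (circles), from 15 nociceptor markers (squares), or from 12 pan-neuronal markers (triangles). The 8 members below 0 under TMM lie near or above 0 under the neuronal scalings, and *Trpm2* moves from 0.48 to about 1.

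The rest of the TRP superfamily was examined next. Of 18 further genes examined, 16 were tested, with a median log2 fold change of -0.006. Among these, 2 fell (beside 5.27% of all genes tested) and 1 rose (beside 10.1%). Both that fell were of the TRPC subfamily. *Trpc4* fell from 10.2 ± 0.912 to 6.15 ± 0.765 CPM (SD, n = 3 each, log2 fold change -0.72, edgeR adjusted p = 0.0193) and *Trpc7* from 3.26 ± 0.691 to 1.96 ± 0.222 CPM (log2 fold change -0.73, edgeR adjusted p = 0.0493). *Trpc5* had a log2 fold change of -0.54 and did not pass (edgeR adjusted p = 0.0786). *Mcoln2*, an endolysosomal channel of immune cells, had 28, 44 and 29 reads in Gfp replicates 1, 2 and 3, and NIS replicates 1, 2 and 3 had 375, 191 and 134. It rose by a log2 fold change of 2.77 (SE 0.42, edgeR adjusted p = 0.0144). Its highest library was NIS replicate 1, where B and plasma cell markers summed to 379 CPM, against 10.8 to 19.5 CPM in Gfp libraries. Of these markers, 7 of 7 were higher (beside 10.1% of all genes tested), and the part of these cells was not tested.

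The other TRP genes with a mean of at least 1 CPM lay closer to 0. *Trpm7*, a channel with a kinase domain that most cells express, was at 93.1 ± 2.05 and 99.2 ± 4.17 CPM (SD, n = 3 each), a log2 fold change of 0.09. The polycystin *Pkd2* (-0.002) and the lysosomal channel *Mcoln1* (0.003) had differences near 0. *Trpv4*, an osmosensitive channel, was at 0.43 (edgeR adjusted p = 0.118), *Trpm5* at 0.32, *Trpv6* at 0.08, *Trpm6* at 0.08, *Pkd2l2* at -0.14 and *Trpv3* at -0.21, none of which passed. *Trpv5* and *Mcoln3* had too few reads to be tested.

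Of 18 genes for proteins that bind, phosphorylate or act downstream of TRP channels, 1 fell (beside 5.27% of all genes) and 0 rose (beside 10.1%) in edgeR's test. At an unadjusted p under 0.05, 2 were higher and 6 lower (beside 19.2% and 15.5% of all genes tested). Their median log2 fold change was -0.16. The gene that fell was *Ano1*, a calcium-activated chloride channel that works beside TRPV1 in nociceptors. Gfp replicates 1, 2 and 3 had 1256, 1410 and 1310 reads of it, and NIS replicates 1, 2 and 3 had 837, 911 and 947, so the groups lay far apart with little spread within each. Its log2 fold change was -0.60 (SE 0.07, edgeR adjusted p = 0.0139).

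Receptors and ligands that sensitize TRP channels or signal through them moved in both directions. Of 19 genes tested, 4 rose (beside 10.1% of all genes tested), 1 fell (beside 5.27%) and 14 did not pass. The median log2 fold change was -0.02. The 4 that rose were the receptors for inflammatory signals *Ccr2* (1.80, SE 0.37), *Ccr1* (1.36, SE 0.30), *Tnfrsf1a* (0.52, SE 0.12) and *Il1r1* (0.40, SE 0.10), with edgeR adjusted p-values of 0.0248, 0.0292, 0.0319 and 0.0359. *Ccr1* and *Ccr2* are also genes of monocytes and macrophages. *Il31ra*, an itch cytokine receptor of a group of nociceptors, fell from 19.8 ± 1.87 to 14.3 ± 2.03 CPM (SD, n = 3 each, log2 fold change -0.46, SE 0.13, edgeR adjusted p = 0.0478).

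The genes whose levels followed *Trpm8* most closely over the 6 libraries were *Garnl3*, *Hcrtr2*, *Trhde*, *Hs3st2* and *Scgn*, with Pearson correlations of log2 CPM from 0.9988 to 0.9998. Among the members, *Trpc1* (0.99, rank 118 of 18592 genes) and *Trpc6* (0.98, rank 392) were nearest to *Trpm8*, and *Trpm2* (-0.93) was the most distant. These 6 points fall into 2 groups that differ in neuronal markers, and the correlations describe these libraries alone.

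Other cell types moved with the groups as well. B and plasma cell markers were led by *Jchain* (log2 fold change 6.41), *Ms4a1* (5.49), *Mzb1* (5.20), *Cd79b* (3.24) and *Pax5* (2.98), and T and NK cell markers by *Cd4* (3.33), *Cd3e* (3.88), *Lck* (2.53), *Cd2* (3.36) and *Cd3d* (3.38), all of which rose. T and NK cell markers summed to 3.90 to 10.6 CPM in Gfp and 37.7 to 85.2 CPM in NIS libraries, and 7 of 8 tested were higher. Fibroblast markers summed to 941 to 1230 and 1367 to 2142 CPM, and 1 of 5 was higher (*Col1a2* at 0.84). Both counts stand beside 10.1% of all genes tested. Satellite glia (2406 to 2769 and 2371 to 2670 CPM) and Schwann cell markers (3702 to 4529 and 3929 to 4388 CPM) overlapped between the groups. Their part in the differences of the members was not tested. Of 10 nerve injury genes, *Atf3* (log2 fold change 0.78, edgeR adjusted p = 0.0269) and *Csf1* (0.58, edgeR adjusted p = 0.0301) rose, beside 10.1% of all genes tested. The other 8 were not called, and 2 of them had negative log2 fold changes. The sum of this list overlapped between the groups, at 177.6 to 183.5 CPM in Gfp and 176.2 to 204.4 CPM in NIS libraries.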

How the data were processed

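For 6 libraries (TruSeq Stranded Total RNA kit), the authors deposited counts of reads for each gene symbol, not normalized. The submitters' processing notes name GRCm38 (mm10), and the aligner, annotation, use of strand and treatment of multimapping reads are not given in the sources used here. The test used edgeR 4.0.16 in R 4.3.3. All 48440 rows entered filterByExpr with the group, and the 18593 genes it left were TMM-normalized and compared by glmQLFit and glmQLFTest with no covariate, and a Benjamini-Hochberg adjusted p under 0.05 was called. Standard errors were the absolute coefficient over the square root of F. CPM were computed from the counts with TMM factors, and gene lengths and overlaps came from GENCODE M21. Intervals of fold changes are from the model, and total counts per library were between 32025612 and 34764282.

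On counts simulated from all 18593 genes with 200 changed by 1.5 on the log2 scale, edgeR recovered 83.2% with 6.83% of calls false, DESeq2 84.4% with 21.6%, and limma-voom 82.4% with 7.00%. The largest log2 fold change of a member was -0.56, so these recovery rates do not hold for changes of the members' size. Within groups, pairwise chi-square per degree of freedom was 8.27 to 48.9, so no library was a copy of another.

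The members and lists were chosen with earlier results of these data known. All 9 members are named, and from each other list the called genes, at most 5 in each direction by adjusted p. Further TRP genes were named at a mean of at least 1 CPM, and the 5 genes closest to the member with the smallest p (pseudocount 0.5 CPM). *Trpc2*, *Trpm1* and *Pkd2l1* were below that level and were not called. Large neuron, endothelial, neutrophil, mural, erythrocyte and skeletal muscle lists are given after the report. The alternatives were other normalizations, no filter, DESeq2 1.42.0, limma-voom (limma 3.58.1), a replicate block, another threshold, and leaving out each library. One gene of the lists is not reported here and was left out of the list counts.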

Additional observations from a re-analysis of the deposited data

How the results depend on the processing

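All 9 members kept their direction under each alternative except the neuronal scalings. The number of members called lower was 2, and 1 with total counts (4.16% of all genes). With library size from pan-neuronal or nociceptor markers it was 0, beside 0.0645% and 0.274% of all genes. It was 5 with DESeq2 (8.64%), 5 at an adjusted p under 0.1 (10.9%), and 0 to 4 in the fits leaving out 1 library. Without Gfp replicate 1, 2 or 3 it was 0, beside 0.311%, 0% and 0% of all genes. Without NIS replicate 2 it was also 0, beside 0.794%. These fits called few or no genes lower. The number was 3 without NIS replicate 1 (with *Trpa1*, beside 5.79%) and 4 without NIS replicate 3 (with *Trpm3* and *Trpc1*, beside 7.63%). The number called higher was 0, and 1 (*Trpm2*) with DESeq2 (beside 12.9% of all genes), the replicate block (11.4%), an adjusted p under 0.1 (15.6%) or nociceptor scaling (21%). It was 0 in all fits leaving out 1 library, beside 0.0634% to 13.1% of all genes. The cause was not tested.

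Pan-neuronal and nociceptor scaling moved the median log2 fold change of all genes to 0.48 and 0.44. With this shift, values were positive with pan-neuronal scaling for *Trpv1* (0.14), *Trpv2* (0.40), *Trpm3* (0.045), *Trpm4* (0.32), *Trpc1* (0.13) and *Trpc6* (0.024), and with nociceptor scaling for *Trpv1* (0.11), *Trpv2* (0.37), *Trpm3* (0.011), *Trpm4* (0.28) and *Trpc1* (0.10). Of all calls, 65.6% were higher, 99.6% and 98.7% under these scalings, and 74.6% with total counts.

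With the replicate number as a block, 3 members were lower (beside 7.21% of all genes, *Trpm8*, *Trpc6*, and *Trpa1* with an edgeR adjusted p of 0.0417) and 1 higher (*Trpm2*, 0.0385). Deviations of same-numbered libraries correlated at 0.038, 0.065 and 0.139, not over 0.1 in every pair, and the labels name nothing shared by a number, so the libraries were not treated as paired. Gfp replicate 2 correlated best with NIS replicate 1 (0.072).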

Other observations

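Markers of other cells gave these further values. Of 10 large sensory neuron markers, *Pvalb*, *Ntrk3* and *Cntnap2* fell (beside 5.27% of all genes tested) and *Runx3* rose (beside 10.1%). All but *Runx3* had negative log2 fold changes. *Runx3* was at 21.2, 11.2 and 9.42 CPM in NIS replicates 1, 2 and 3, and which cells its reads came from was not tested. The list median log2 fold change was -0.36. Of 5 neutrophil markers, 0 were called by edgeR, and 3 were higher at an unadjusted p under 0.05 (beside 19.2% of all genes tested). Their sum was 75.5 to 84.7 CPM in Gfp and 105 to 208.6 CPM in NIS libraries. *Slc1a3* rose among 6 satellite glia markers (beside 10.1% of all genes tested). Of 6 endothelial markers, *Pecam1* rose (log2 fold change 0.88, beside 10.1% of all genes tested) and *Flt1* fell (-0.42, beside 5.27%). The other 4 were not called. Mural, erythrocyte and skeletal muscle markers had 0 calls by edgeR. At an unadjusted p under 0.05, 0, 1 and 0 of their genes were higher (beside 19.2% of all genes tested) and 0 lower (beside 15.5%). Skeletal muscle markers varied among Gfp libraries from 16.6 to 334 CPM in sum.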
